A study of Mus musculus with 36 samples.

Results

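The proteasome subunits are followed here through 91 probe sets of 45137 on a pair of Affymetrix arrays, hybridised with RNA of mouse mesenteric lymph nodes. They are all the probe sets that the platform annotation lists under a single symbol starting with Psma, Psmb, Psmc, Psmd or Psme, with the inducible Psmb8 and Psmb9 left out. Array A carried 74 of its 22626 probe sets under these symbols and array B 17 of 22511, for 42 of the 18194 genes that a probe set names alone. On array A, 28 probe sets named the core subunits (Psma and Psmb, 16 genes), 37 the regulatory subunits (Psmc and Psmd, 20 genes) and 7 the activators (Psme, 3 genes). Another 2, Psmc3ip and Psme3ip1, share only the letters of their names and encode no subunit, so they were kept out of the counts by class. The classes follow the symbols, so the regulatory one also holds Psmd5, Psmd9 and Psmd10, assembly factors that are not part of the finished proteasome. No probe set named Psme2 alone, so it is not reported.

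The nodes came from mice treated with the soluble lymphotoxin-beta receptor, a decoy that binds the ligands of that receptor, for 1, 2, 3, 27 or 35 days, or with phosphate-buffered saline (PBS, day 0). There were 6 groups, with 3 samples apiece on either array. The labels state neither the strain, sex or age of the mice nor that replicate samples are different mice, so a p-value here speaks of the spread among samples and no further. They describe no group given a control fusion protein. The labels describe PBS samples at a single time, so days under treatment and days in the experiment cannot be told apart.

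The proteasome degrades proteins tagged with ubiquitin. Its core is a barrel of small subunits, with outer rings of alpha subunits (Psma) that gate the entrance and inner rings of beta subunits (Psmb), of which Psmb5, Psmb6 and Psmb7 carry the peptide-cutting sites. A regulatory cap of ATPases (Psmc) and larger non-ATPase subunits (Psmd) recognises, unfolds and feeds in the substrates, and the Psme activators can take the place of that cap. In lymphoid tissue the proteasome also makes peptides for antigen presentation, and the lymphotoxin-beta receptor signals through a route in which it processes the NF-kappaB precursor Nfkb2.

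Promoters of 3 core and 2 regulatory genes are shown as examples of the motif matches counted by class in the next paragraph. The 250 bases before the annotated start, taken from RefSeq on GRCm38.p6, were searched on both strands for TGACNNNGC (letters of the antioxidant response element, which Nfe2l1 binds), CCAAT and CCGGAAG (letters that ETS factors bind). Of 40 genes in the core, regulatory and activator classes, 33 had a promoter listed. No match of a motif overlapped a match of another one. The windows are chr14:54617996-54618245 (- strand) for Psmb5, chr11:70525107-70525356 (+ strand) for Psmb6, chr13:14612992-14613241 (+ strand) for Psma2, chr16:20651402-20651651 (+ strand) for Psmd2 and chr11:80428365-80428614 (+ strand) for Psmd11. Each is printed along its gene's strand, with matches in capitals.
Psmb5: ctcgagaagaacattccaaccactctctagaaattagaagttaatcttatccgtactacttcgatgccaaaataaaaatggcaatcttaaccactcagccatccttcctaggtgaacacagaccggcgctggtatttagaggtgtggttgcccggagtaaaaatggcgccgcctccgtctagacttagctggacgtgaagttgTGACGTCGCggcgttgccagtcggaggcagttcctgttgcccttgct
Psmb6: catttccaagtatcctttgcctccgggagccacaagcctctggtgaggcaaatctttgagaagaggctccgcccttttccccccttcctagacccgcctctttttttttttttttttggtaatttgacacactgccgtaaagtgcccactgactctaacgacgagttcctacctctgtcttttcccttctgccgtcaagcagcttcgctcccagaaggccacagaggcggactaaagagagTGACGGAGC
Psma2: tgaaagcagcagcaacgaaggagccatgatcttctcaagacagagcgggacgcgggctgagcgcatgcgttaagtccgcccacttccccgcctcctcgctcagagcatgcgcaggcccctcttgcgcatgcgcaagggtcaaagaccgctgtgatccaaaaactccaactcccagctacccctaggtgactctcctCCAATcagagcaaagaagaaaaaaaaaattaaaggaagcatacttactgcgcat
Psmd2: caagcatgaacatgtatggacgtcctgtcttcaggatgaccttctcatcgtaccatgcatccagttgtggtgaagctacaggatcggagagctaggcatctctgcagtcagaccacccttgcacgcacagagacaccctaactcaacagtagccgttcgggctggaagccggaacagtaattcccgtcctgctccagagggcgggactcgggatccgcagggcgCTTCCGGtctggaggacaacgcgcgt
Psmd11: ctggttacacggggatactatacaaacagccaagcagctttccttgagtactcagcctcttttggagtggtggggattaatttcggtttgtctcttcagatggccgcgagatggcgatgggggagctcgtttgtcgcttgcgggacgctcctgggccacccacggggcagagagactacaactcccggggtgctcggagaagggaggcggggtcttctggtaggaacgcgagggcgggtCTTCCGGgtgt

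CCGGAAG was found before 8 of 17 regulatory genes and 1 of 13 core genes, against 7.83% of all 27025 genes with a promoter listed. CCAAT was found before 5 of 17 regulatory and 7 of 13 core genes, against 37.5% of all genes. TGACNNNGC was found before 3 of 17 regulatory genes (Psmc6, Psmd9 and Psmd12) and 2 of 13 core genes (Psmb5 and Psmb6), against 11.5% of all genes. These are counts of letters in a window, given without a test.

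Array medians lay between 272.8 and 299.5 intensity units on array A and between 149.8 and 165.2 on array B, with precision limited by how few arrays there were. A probe set was tested where it exceeded the median of its table on at least 3 of the 18 arrays, which 57 of 74 proteasome probe sets did on array A and 9 of 17 on array B. These included 21 of 28 core, 28 of 37 regulatory and 6 of 7 activator probe sets on array A. The 17 untested probe sets of array A belonged to Psma1, Psma5, Psma6, Psma8, Psmb1, Psmc1, Psmc4, Psmc6, Psmd6, Psmd7, Psmd9, Psmd11 and Psme3, and the 8 of array B to Psma3, Psmb11, Psmc2, Psmc3ip, Psmd9, Psmd11 and Psme4. Only Psma8 and Psmb11, germ cell and thymus forms of core subunits, had no tested probe set on either array. The lymph node genes Glycam1, Cxcl13 and Madcam1 were detected in every group. A change was called when its limma p-value, adjusted by the Benjamini-Hochberg method over the 12231 (array A) or 12516 (array B) probe sets tested, was under 0.05. Changes are log2 differences of intensity, treated minus PBS, and SE is the fit's standard error.

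On array A the core subunits stood lower on average in the nodes treated for 27 and 35 days than in PBS nodes, while the averages of the regulatory subunits overlapped. Averaged over the 21 core probe sets of array A, log2 intensity less the PBS mean was -0.10, -0.14 and -0.19 in the day 27 samples and -0.17, -0.25 and -0.21 in the day 35 samples, against -0.05, -0.00 and 0.06 in the PBS samples. All 6 late samples lay below all 3 PBS samples and all 9 samples of days 1 to 3. Over the 28 regulatory probe sets the same average was 0.01, -0.07 and 0.02 at day 27 and -0.02, 0.01 and -0.03 at day 35, against 0.02, -0.02 and 0.00 in PBS samples, so these groups overlapped. The core average less the regulatory average ran from -0.21 to -0.07 at day 27 and from -0.27 to -0.15 at day 35, against -0.07 to 0.05 in PBS samples. In the early samples it ran from -0.03 to 0.07 at day 1, from -0.02 to 0.02 at day 2 and from -0.12 to 0.05 at day 3. The lowest early value belonged to day 3 sample 3, which overlapped the late samples. On array B, with 3 core probe sets tested, core averages ran from -0.36 to -0.06 at day 27 and from -0.45 to -0.32 at day 35. They ran from -0.04 to 0.08 in PBS samples and from -0.22 to -0.05 at day 3, so days 27 and 3 overlapped. Less the regulatory average, day 27 ran from -0.28 to 0.06 there and overlapped PBS samples, at -0.07 to 0.06, while day 35 ran from -0.36 to -0.31. In bulk tissue, fewer cells of a type and less RNA per cell cannot be told apart.

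**Figure D1:**
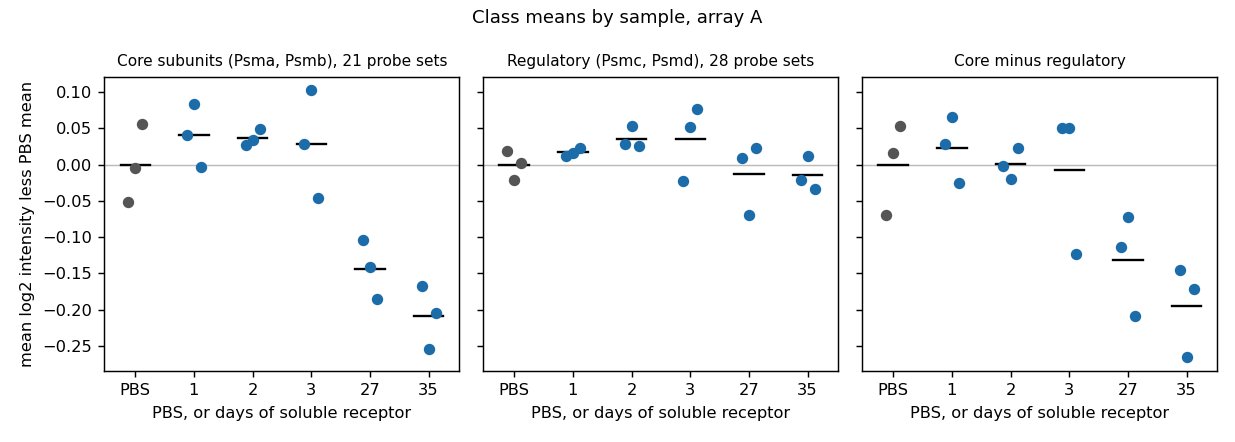
Mean log2 intensity less the PBS mean (y axis) by sample on array A, for PBS and for 1, 2, 3, 27 and 35 days of soluble receptor (x axis), over 21 core probe sets, over 28 regulatory probe sets, and as their difference. Points are samples (n = 3 per group) and bars their means; all 6 late core averages lie below the PBS and early ones, while the regulatory averages overlap.

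During the first 3 days no proteasome probe set was called on array A, at a time when few of any kind were. The share of all tested probe sets called in either direction was 0.0164% at day 1, 0.114% at day 2 and 0.556% at day 3. Counts at an unadjusted p, here and below, stand without the share over all probe sets and are no result about the members. Without adjustment, 4, 4 and 5 of the 57 members (which include Psmc3ip and Psme3ip1) had a limma p under 0.05 at days 1, 2 and 3. Among them was Psma4, an alpha subunit, which stood at 1169, 1231 and 1122 units at day 1, against 1081, 1034 and 1066 in PBS samples. Its day 1 samples all lay above the PBS samples, though the log2 difference of 0.15 was not called (SE 0.062, adjusted p = 0.998). At day 2 Psma4 differed by 0.17 (SE 0.062, adjusted p = 0.746). Psmb6 differed by 0.16 at day 1 (adjusted p = 0.998), Psmb3 by 0.19 at day 2 (adjusted p = 0.873) and Psma7 by 0.20 at day 3 (adjusted p = 0.303), so the early core differences with the smallest p lay above 0. Psme3 (1418078_at) lay below 0, at -0.25 on day 1 and -0.29 on day 3 (adjusted p = 0.293). The core median was 0.03 at day 1, 0.04 at day 2 and 0.00 at day 3, beside 0.02, 0.03 and 0.02 over all probe sets tested.

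After 35 days 5 of 21 core probe sets had fallen and none had risen, while 5.58% of all tested probe sets were called lower and 1.77% higher. Of the 21, 20 were below 0, and their median was -0.21, against 0.03 over all probe sets tested. The 3 day 35 samples lay below all 3 PBS samples for 13 core probe sets, where 13.2% of all tested probe sets did so. The count of 5 was 3 without day 35 sample 2 and between 4 and 6 without any other sample.

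Among the alpha subunits Psma2 and Psma4 fell. Psma2 had 1094, 1067 and 1095 units in day 35 samples, against 1311, 1378 and 1401 in PBS samples. The groups did not overlap, and the log2 change was -0.33 (SE 0.068, adjusted p = 0.0068). Psma4 had 835, 871 and 859 units in day 35 samples, against 1081, 1034 and 1066 in PBS samples. It changed by -0.31 (SE 0.062, adjusted p = 0.00522), again with no overlap. Psma1, at 892, 975 and 811 units against 1026, 1024 and 1129 in PBS samples, differed by -0.25 and missed the threshold (SE 0.081, adjusted p = 0.0672). Psma3, Psma5 and Psma6 had 6 probe sets between -0.29 and -0.14, none called. Psma7 stood apart, at 0.05 and -0.07 by its 2 probe sets.

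Among the beta subunits Psmb4, Psmb6 and Psmb7 fell. Psmb7, the trypsin-like catalytic subunit, had the largest change among the 21 core probe sets. It had 1220.2, 1119 and 1193 units in day 35 samples, against 1541, 1523 and 1652 in PBS samples, a log2 change of -0.42 (SE 0.075, adjusted p = 0.00282). Psmb6, the caspase-like catalytic subunit, had 735, 723 and 726 units in day 35 samples, against 852, 975 and 902 in PBS samples. Its day 35 samples were close together and below every PBS sample (log2 change -0.32, SE 0.072, adjusted p = 0.0112). Psmb4, a structural subunit of the inner ring, had 1277, 1208 and 1184 units in day 35 samples, against 1506, 1456 and 1472 in PBS samples (log2 change -0.27, SE 0.064, adjusted p = 0.0136). The Psmb4 call was lost without day 35 sample 2 and the Psmb6 call without that sample or PBS sample 2.

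Psmb5, the chymotrypsin-like catalytic subunit, had 1259, 1235 and 1294 units in day 35 samples, against 1392, 1392 and 1699 in PBS samples. The groups did not overlap, but PBS sample 3 stood far above the other PBS samples, and the difference of -0.24 was not called (SE 0.076, adjusted p = 0.066). Psmb1, Psmb2 and Psmb3 lay between -0.28 and -0.09 and were not called. Psmb10, the inducible subunit that takes the place of Psmb7 in the immunoproteasome, had 1693, 1416 and 1647 units in day 35 samples, against 1497, 1620.0 and 1646 in PBS samples. These samples overlapped, with a difference of -0.01 (SE 0.086, adjusted p = 0.981).

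**Figure D2:**
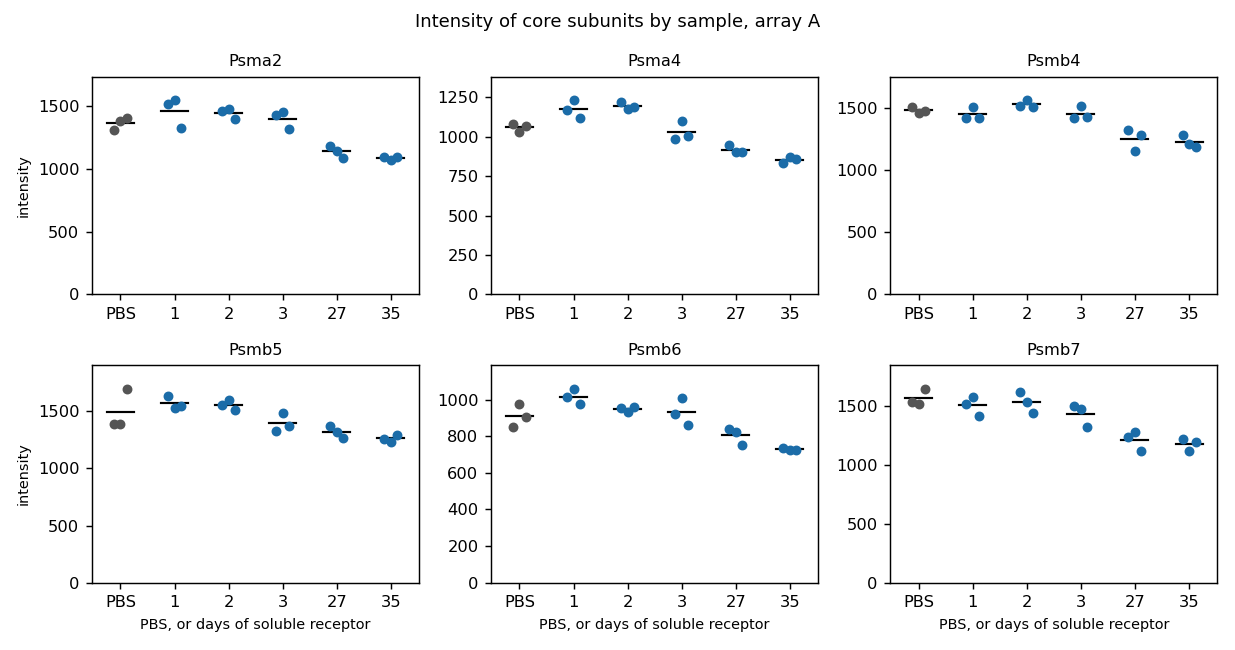
Intensity (y axis, linear units from 0) of 6 core subunits on array A by sample, for PBS and for 1, 2, 3, 27 and 35 days of soluble receptor (x axis). Points are samples (n = 3 per group) and bars means; Psma2 and Psmb7 lie lower at days 27 and 35 than in PBS and early samples, and PBS sample 3 of Psmb5 stands high at 1699.

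At day 27 the core subunits were also lower, with fewer calls. Of 21 core probe sets 3 had fallen, where 2.6% of all tested probe sets were called lower, and the core median was -0.16, against 0.05 over all. For 8 core probe sets the day 27 samples lay below all PBS samples, where 9.69% of all tested probe sets did. Psmb7 had 1244, 1282 and 1122 units in day 27 samples, against 1541, 1523 and 1652 in PBS samples (log2 change -0.37, SE 0.075, adjusted p = 0.01). Psma2 changed by -0.26 (SE 0.068, adjusted p = 0.0423), with 1181, 1143 and 1089 units against 1311, 1378 and 1401 in PBS samples. Psmb4 changed by -0.25 (SE 0.064, adjusted p = 0.04), with 1318, 1149 and 1279.6 units against 1506, 1456 and 1472 in PBS samples. The day 27 calls rested on single samples: between 0 and 2 core probe sets were called when a sample was left out, with 0 without PBS sample 3 and 0 without day 27 sample 3, and 1 without PBS sample 1 and 1 without PBS sample 2. Other core values at day 27 included -0.21 for Psma4 (adjusted p = 0.0778), -0.18 for Psmb6 (adjusted p = 0.194) and 0.07 for Psma7 (adjusted p = 0.599), none called.

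Between days 27 and 35 nothing was called on array A, over members or over all probe sets (0 of 12231, and 0 of 57 members also at an unadjusted limma p under 0.05). The core median of day 35 minus day 27 was -0.07 and the regulatory median 0.02, against -0.01 over all.

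The regulatory class, which by its symbol rule leaves out the lid subunit Sem1 given below, had few calls against PBS. At day 27 none of the 28 regulatory probe sets was called, with 5 at an unadjusted limma p under 0.05 and a median of -0.02 over the 28. For 7 the day 27 samples lay below all PBS samples and for 0 above, where 9.69% and 10.9% of all did. Psmc5 had the lowest p of the ATPases there, at -0.17 (SE 0.065, adjusted p = 0.173), and Psmd1 differed by -0.19 (SE 0.079, adjusted p = 0.197). At day 35 only Psmc5, an ATPase of the ring at the base of the cap, was called. It had 731, 729.7 and 651 units in day 35 samples, against 808, 859 and 784 in PBS samples, without overlap (log2 change -0.22, SE 0.065, adjusted p = 0.0495). The regulatory median at day 35 was -0.04, against 0.03 over all. Of the 28, 18 (64.3%) were below 0, where 42% of all tested probe sets were. For 7 the day 35 samples lay below all PBS samples and for 2 above, where 13.2% and 15.9% of all did. The Psmc5 call was lost without each of the 6 samples in turn. The other ATPases lay between -0.17 and 0.15, with Psmc4 lowest (adjusted p = 0.0886) and Psmc1 highest. Psmc3 and the 2 probe sets of Psmc2 lay between -0.08 and -0.03.

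Among the Psmd probe sets 12 of 21 were below 0 at day 35 and none was called. Psmd1 and Psmd8, parts of the cap's scaffold and lid, differed by -0.22 (adjusted p = 0.0932) and -0.23 (adjusted p = 0.0797) and missed the threshold. Psmd2, a scaffold subunit that docks ubiquitin-binding factors, had 1005, 1099 and 945 units in day 35 samples, against 854, 949 and 946 in PBS samples. These overlapped, and Psmd2 differed by 0.15 (SE 0.089, adjusted p = 0.341). Psmd4, a ubiquitin receptor, had 3 probe sets between -0.07 and 0.13. Psmd14, the enzyme that removes ubiquitin chains from substrates, had 1024, 1168 and 1062 units in day 35 samples, against 1111, 1134 and 1138 in PBS samples, a difference of -0.06 (SE 0.083, adjusted p = 0.721). Psmd12, a lid subunit, had the smallest difference, -0.00 (SE 0.061, adjusted p = 0.995).

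**Figure D3:**
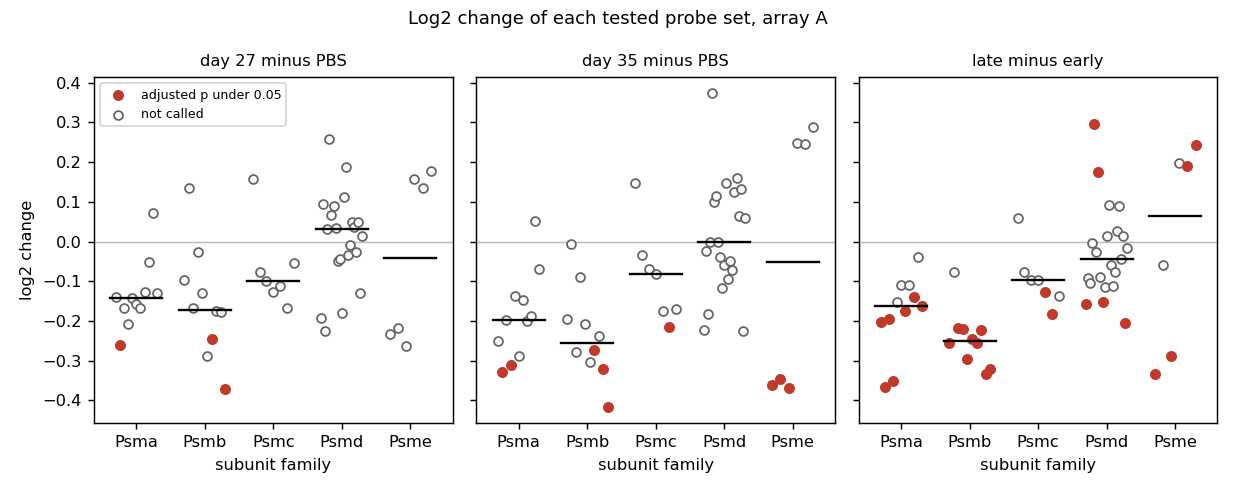
Log2 change (y axis) of each tested probe set on array A by subunit family (x axis), for day 27 minus PBS, day 35 minus PBS and late (days 27 and 35) minus early (days 1, 2 and 3). Filled points had an adjusted p under 0.05, open points did not, and bars are family medians; all 21 core probe sets (Psma, Psmb) lie below 0 in the late minus early panel.

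Among the activators Psme1 and Psme3 fell by day 35, and Psme4 was not called against PBS. With the RNA quality covariate (the ratio of 3' to 5' control signal) the 3 calls were lost, at adjusted p = 0.0683 for Psme1 and 0.166 and 0.338 for the probe sets of Psme3. Psme1, a subunit of the interferon-inducible ring that opens the core, had 2080.0, 1841 and 1744 units in day 35 samples, against 2255, 2454 and 2559.6 in PBS samples. It fell without overlap (log2 change -0.36, SE 0.072, adjusted p = 0.00522). Psme3, the nuclear ring activator that works without ubiquitin, fell by both of its tested probe sets. The first (1418079_at) had 367, 332 and 356 units in day 35 samples, against 507, 413 and 445 in PBS samples (log2 change -0.37, SE 0.077, adjusted p = 0.00716), a call lost without day 35 sample 2. The other (1418078_at) had 618, 578 and 575 units, against 807, 709.8 and 738 in PBS samples (log2 change -0.35, SE 0.099, adjusted p = 0.0393). This call was lost without each of the 6 samples in turn. At day 27 Psme1 differed by -0.23 (adjusted p = 0.0865) and Psme3 (1418079_at) by -0.26 (adjusted p = 0.0702), neither called.

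Psme4, the large single-chain activator of nuclei, stood higher by all 3 of its tested probe sets on array A, with differences of 0.25 to 0.29, none called against PBS. The probe set with the largest difference, 1452211_at, had 438, 497 and 468 units in day 35 samples, against 349, 385 and 417 in PBS samples. The groups did not overlap (log2 difference 0.29, SE 0.11, adjusted p = 0.113). At day 27 the spread was wider, with 452, 351 and 510.0 units.

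**Figure D4:**
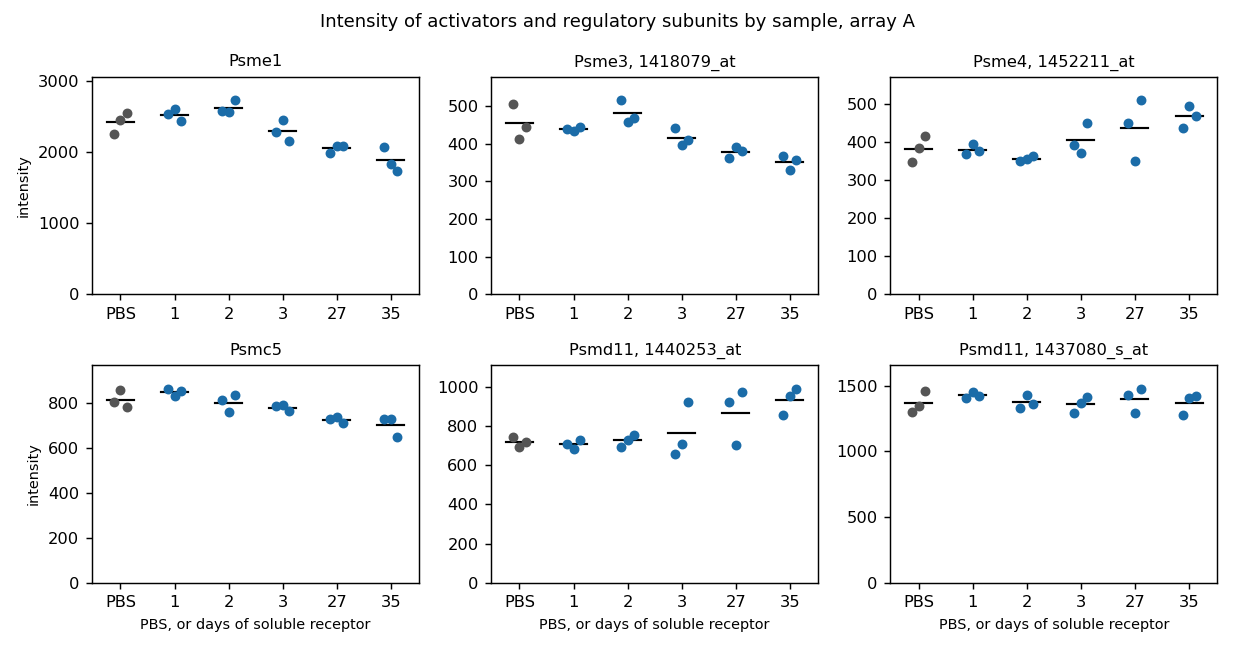
Intensity (y axis, linear units from 0) of activators and regulatory subunits on array A by sample, for PBS and for 1, 2, 3, 27 and 35 days of soluble receptor (x axis). Points are samples (n = 3 per group) and bars means; Psme1 and Psme3 lie lower and Psme4 and Psmd11 probe set 1440253_at higher at day 35 than in PBS, while Psmd11 probe set 1437080_s_at overlaps throughout.

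Setting the 6 late samples (days 27 and 35) against the 9 early samples (days 1, 2 and 3) used treated nodes alone and gave more calls. Of the 21 core probe sets 16 were lower in the late samples and none higher, where 10.4% of all tested probe sets were lower and 4.98% higher. With the brightest probe set standing for each gene, 13 of 15 core genes were lower. All 21 core probe sets were below 0, with a median of -0.22 and a range of -0.37 to -0.04, against a median of 0.02 over all. In 6 of them every late sample lay below every early sample, where 1.62% of all tested probe sets showed this. These were Psma2, Psma4, Psmb1, Psmb4, Psmb6 and Psmb7.

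Psma2 had a lowest, median and highest intensity of 1067, 1094 and 1181 units in late samples, against 1318, 1448 and 1544 in early samples (log2 change -0.37, SE 0.044, adjusted p = 3.03e-05). Psma4 changed by -0.35 (SE 0.04, adjusted p = 2.04e-05), with 835, 886 and 951 units in late samples against 988, 1169 and 1231 in early samples. Both alpha subunits were clearly separated by time. Psmb6 had 723, 743 and 839 units in late samples, against 858, 961 and 1059.5 in early samples (log2 change -0.33, SE 0.047, adjusted p = 0.000111). Psmb7 had 1119, 1207 and 1282 units in late samples, against 1325, 1504 and 1625 in early samples (log2 change -0.32, SE 0.048, adjusted p = 0.000214). Psmb5, which missed the threshold against PBS, was called here, with 1235, 1278 and 1374 units in late samples against 1328, 1534 and 1633 in early samples (log2 change -0.22, SE 0.049, adjusted p = 0.00428). All 3 constitutive catalytic subunits were thus lower late than early.

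Psmb1, a subunit of the inner ring, fell to 1555, 1725 and 1909 units (lowest, median and highest) in late samples, against 1974, 2024 and 2269 in early samples (log2 change -0.26, SE 0.047, adjusted p = 0.00102). Psma1, Psma3, Psma6, Psma7, Psmb2 and Psmb3 were also called by at least 1 probe set, with changes between -0.29 and -0.14. The core genes without a call were Psma5, at -0.15 and -0.11, and Psmb10. Psmb10 had 1416, 1679 and 1875 units in late samples, against 1580.3, 1727 and 1941 in early samples, a difference of -0.08 (SE 0.055, adjusted p = 0.397).

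Of the 28 regulatory probe sets 5 were lower and 2 higher in late samples, with a median of -0.08. That is 17.9% lower and 7.14% higher, beside 10.4% and 4.98% over all tested probe sets. With the brightest probe set standing for each gene, 5 of 20 regulatory genes (25%) were lower and 0 higher. The members called are given as single values. Those lower were Psmc4, Psmc5, Psmd1, Psmd8 and Psmd13, by -0.21 to -0.13. Psmd8, a lid subunit, had 707, 824 and 853 units in late samples, against 849.8, 934 and 1001 in early samples (log2 change -0.21, SE 0.049, adjusted p = 0.00744). Psmc5 had 651, 729.8 and 739 units in late samples, against 760.0, 815 and 866 in early samples, the only regulatory probe set without overlap (log2 change -0.18, SE 0.042, adjusted p = 0.00593). Psmc4, another ATPase, had 559, 575 and 596 units in late samples, against 594, 632 and 669 in early samples (log2 change -0.13, SE 0.039, adjusted p = 0.034). Psmd1 changed by -0.16 (SE 0.051, adjusted p = 0.042) and Psmd13, a lid subunit, by -0.15 (SE 0.049, adjusted p = 0.0423). The calls of Psmd1, Psmd13 and Psmc4 were lost in 16, 14 and 11 of 25 alternative runs, and those of Psmc5 and Psmd8 in none. Psmd2 differed by 0.09 (adjusted p = 0.312) and Psmd14 by 0.01 (adjusted p = 0.894), with overlapping samples. Both higher probe sets were of Psmd11, a lid subunit that holds the cap and core together. The regulatory count moved between 3 and 7 when single samples were left out, with 3 without day 2 sample 1, day 3 sample 2 or day 35 sample 2 and 4 without day 1 sample 1, day 27 sample 2, day 27 sample 3 or day 35 sample 1. The core count stayed between 11 and 17.

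Among the activators Psme1 had 1744, 2039 and 2095 units in late samples, against 2166, 2541 and 2732 in early samples, without overlap (log2 change -0.33, SE 0.047, adjusted p = 0.000115). Psme3 was lower by probe set 1418079_at (log2 change -0.29, SE 0.05, adjusted p = 0.000645) and not by 1418078_at (log2 difference -0.06, SE 0.064, adjusted p = 0.581). The early samples of 1418078_at reached down to 532 units, below its lowest late sample at 575. Psme4 was higher by 2 of 3 probe sets, with log2 changes of 0.24 (SE 0.07, adjusted p = 0.0232) and 0.19 (SE 0.05, adjusted p = 0.0152). Both calls were lost with the RNA quality covariate and with arrays scaled to a common median (highest adjusted p over all alternatives 0.0845 and 0.0694). The call with the larger change was also lost without day 27 sample 1, day 27 sample 3 or day 35 sample 2. Its late and early samples overlapped, at 351 to 510.0 units late against 351 to 450.0 early for the probe set with the larger change.

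**Figure D5:**
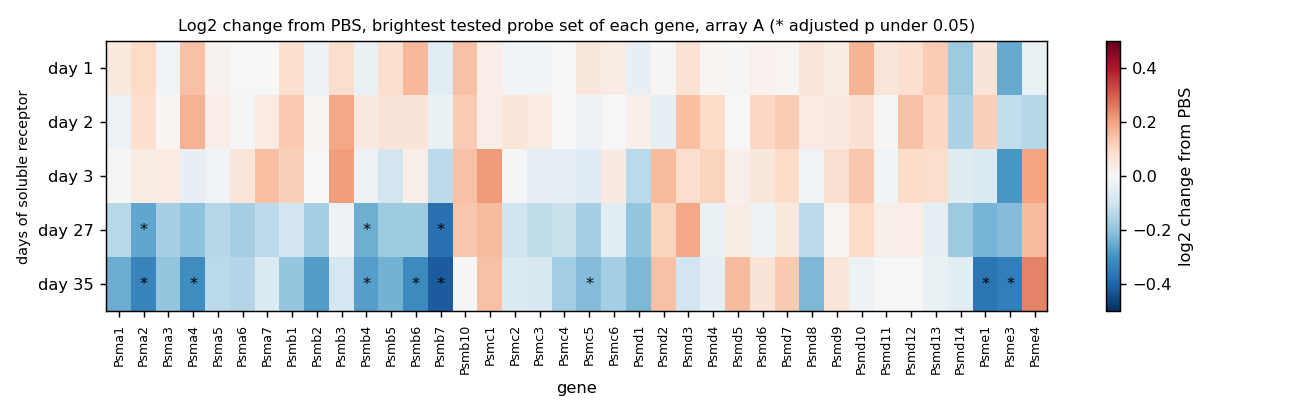
Log2 change from PBS (colour, blue lower and red higher) of the brightest tested probe set of each gene on array A (x axis) at 1, 2, 3, 27 and 35 days of soluble receptor (y axis). Asterisks mark an adjusted p under 0.05: none stands at days 1 to 3, 3 at day 27 (Psma2, Psmb4, Psmb7) and 8 at day 35.

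Probe sets of the same gene did not always move together. Psmd11 had 5 tested probe sets on array A, with differences at day 35 from -0.18 to 0.37. Probe set 1440253_at had 858, 956 and 993 units in day 35 samples, against 748, 696 and 719 in PBS samples, a log2 difference of 0.37 (SE 0.12, adjusted p = 0.0594). Its day 3 sample 3 stood at 924 units, beside 656 and 712 in the other day 3 samples, and its day 27 sample 2 at 705, beside 926 and 977. Between late and early samples it changed by 0.30 (SE 0.075, adjusted p = 0.012), and probe set 1456104_at by 0.17 (SE 0.052, adjusted p = 0.0306). These calls were lost in 1 and 8 of 25 alternative runs. The brightest Psmd11 probe set, 1437080_s_at, stood at 1274, 1405 and 1424 units in day 35 samples, against 1301, 1345 and 1463 in PBS samples, and differed by -0.00 both against PBS and late against early. Which parts of the transcript these probe sets cover was not analysed here, so a direction for Psmd11 as a gene is not given. For the core genes with several tested probe sets, Psma5, Psma6, Psmb3 and Psmb4 had the same sign within each gene at day 35, and the 2 of Psma7 differed in sign.

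On array B 9 proteasome probe sets were tested and 3 had fallen at day 35, where 2.88% of all tested probe sets were called lower. All 3 sit on both arrays. The 94 tested probe sets on both arrays had a median of -0.28 on array B at day 35, against -0.01 over all tested there. The share called among these 94 was not counted, so 3 of 9 beside 2.88% is no result about the members. Psma1 had 778, 806 and 746 units in day 35 samples, against 1166, 1246 and 1166 in PBS samples on array B (log2 change -0.62, SE 0.13, adjusted p = 0.0102). Psmb5 had 993, 1147 and 905 units in day 35 samples, against 1409.9, 1483 and 1376 in PBS samples (log2 change -0.49, SE 0.13, adjusted p = 0.0484). Psmc5 had 592, 614 and 522 units in day 35 samples, against 912, 870.5 and 798 in PBS samples (log2 change -0.58, SE 0.12, adjusted p = 0.013). On array A the same probe sets changed or differed by -0.25, -0.24 and -0.22.

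The 94 tested probe sets carried by both arrays had a median at day 35 of -0.28 on array B and -0.02 on array A, so the probe sets on both arrays stood lower on array B as a whole. The other 4 tested probe sets of Psma1, Psmd11 and Psmd13 lay between -0.07 and 0.11 at day 35, and Psmd2 differed by 0.15 (adjusted p = 0.453). None of the 9 members was called on array B at day 1, 2, 3 or 27 or between late and early samples, where 0.00799%, 0.024%, 0.0799%, 0.328% and 1.66% of all probe sets were called, and at an unadjusted limma p under 0.05 they numbered 0, 0, 1, 3 and 5. Day 35 minus day 27 gave 0 calls of 12516 probe sets, with 2 members under 0.05 unadjusted. Psme4 on array B (1445147_at) had 209, 219 and 224 units in day 35 samples, against 185, 167 and 171 in PBS samples. It did not overlap, in the direction seen on array A, with a difference of 0.32 (SE 0.099, adjusted p = 0.0849). The Psmb5 call was lost without 5 of the 6 samples in turn, and without PBS sample 2 none of the 3 was called, with 1 called without PBS sample 1 and 1 without day 35 sample 3.

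Genes that assemble, equip and supply the proteasome were read from a list of 36, of which 28 were tested. Sem1, the smallest subunit of the lid, and Txnl1, a thioredoxin bound to the cap, fell at day 35. Sem1 had 1157, 1038 and 887 units in day 35 samples, against 1493, 1583 and 1312 in PBS samples (log2 change -0.51, SE 0.11, adjusted p = 0.00794). Txnl1 had 340.2, 304 and 307 units in day 35 samples, against 435, 468 and 419.6 in PBS samples (log2 change -0.48, SE 0.088, adjusted p = 0.0033). Neither overlapped, and both were also lower in late than in early samples, by -0.50 and -0.38 (adjusted p = 0.00012 and 0.0002). At day 27 only Uchl5, a deubiquitinase docked on the cap, was called lower (log2 change -0.40, SE 0.1, adjusted p = 0.0381). Uchl5 already lay below its PBS samples (348, 364 and 355 units) at day 1, with 300, 330 and 258 units. It stayed below them at every later day, though among the single days against PBS it was called at day 27 alone.

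The maturation factor Pomp, which helps beta subunits join the ring, stood at 1194, 1063 and 1142 units in day 35 samples, against 1240.0, 1253 and 1291 in PBS samples, without overlap and not called (log2 difference -0.16, SE 0.091, adjusted p = 0.324). Between late and early samples Pomp changed by -0.26 (SE 0.059, adjusted p = 0.00448) and the assembly chaperone Psmg4 by -0.23 (SE 0.074, adjusted p = 0.0402). Ubqln2, a shuttle that carries ubiquitinated proteins, was the list's only rise, at 0.32 late against early (SE 0.064, adjusted p = 0.00219). Nfe2l1, the factor that drives subunit genes when the proteasome is impaired, had 1437, 1268 and 1457 units in day 35 samples, against 1283, 1389 and 1349.7 in PBS samples, a difference of 0.05 (SE 0.079, adjusted p = 0.761). Over the list, 1 of 28 tested genes was lower at day 27, 2 at day 35 and 4 late against early, where 2.6%, 5.58% and 10.4% of all tested probe sets were lower. These shares are near those over all probe sets, so they are no result about the list.

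Other values moved with the core subunits. The log2 signal of the 3' over the 5' control probe sets of beta-actin, a sign of RNA quality, was 0.08 to 0.16 at day 27 and 0.15 to 0.19 at day 35, against -0.03 to 0.06 in PBS samples of array A. The ratio of pyruvate carboxylase also stood higher, at 0.74 to 0.95 in day 35 samples against 0.49 to 0.62 in PBS samples. The ratio of Gapdh overlapped, at -0.03 to 0.08 in day 35 samples against -0.01 to 0.02 in PBS samples, and that of the transferrin receptor did too, at -0.37 to -0.10 against -0.30 to -0.11. With the mean of the actin and Gapdh ratios as a covariate, 0 of 21 core probe sets were called at day 35, while calls over the whole table fell to 37 lower (0.303%). The core median was then -0.21. In the late against early contrast with this covariate 7 core and 2 regulatory probe sets were lower, where 6.34% of all probe sets were, and the core median was -0.20.

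Genes of other complexes, picked by symbol and not by size, were lower as well. By the brightest probe set per gene, 65 genes with respiratory chain or ATP synthase symbols were tested. Of these 40 were lower at day 35 (median -0.38) and 47 late against early (median -0.30). Of 36 cytosolic ribosomal proteins 10 were lower at day 35 (median -0.17) and 19 late against early (median -0.15). Counted the same way, 5 of 15 core genes were lower at day 35 and 13 late against early. Over all tested probe sets 5.58% and 10.4% were lower, with medians of 0.03 and 0.02. The B cell gene Cd79a had fallen at day 35 (log2 change -0.35, adjusted p = 0.00594), 1 of 4 tested B cell markers, and the 3 on array A summed to 6805 to 7194 units in day 35 samples, against 7859 to 8165 in PBS samples. Of 3 fat markers Cidec had fallen (-0.77, adjusted p = 0.00598), with sums of 7123 to 9519 units against 10566 to 11979.7 in PBS samples. Of 4 fibroblastic stroma markers 3 were higher, with sums of 10943 to 11668 units against 8984 to 9660.4 in PBS samples. The lymph node genes Glycam1, Cxcl13 and Madcam1 had all fallen and summed to 4486 to 5666 units in day 35 samples, against 7549 to 8841 in PBS samples. Of 12 interferon response genes only Mx1 had risen at day 35 (log2 change 0.43, adjusted p = 0.0243), with a median of 0.19 over the 12. The T cell markers differed in sign at day 35, with Cd5 higher (log2 change 0.31, adjusted p = 0.0424), Cd3d at -0.28 (adjusted p = 0.0615) and Cd3e at 0.14 (adjusted p = 0.242). So did the macrophage markers, with Adgre1 higher (log2 change 0.53, adjusted p = 0.015), Csf1r at 0.30 (adjusted p = 0.0536), Cd68 at -0.34 (adjusted p = 0.161) and Mertk at -0.10 (adjusted p = 0.54). Of 3 red cell markers 1 was lower. No call was made among 4 plasma cell, 4 cycling cell and 2 pancreas markers, with 1, 0 and 0 at an unadjusted limma p under 0.05, and the 3 intestine markers were not tested. Between late and early samples the B cell sums overlapped, at 6360.02 to 7194 units late against 6678 to 8888 early. The part of any of these in the proteasome values was not tested.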

How the data were processed

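The values deposited by the authors are linear intensities, given for every probe set on every array, with array medians close together. How they were summarised and scaled is not stated in any source used here. Genes were named from the platform annotation, from probe sets with a single symbol. Members and lists were chosen with earlier results of these data known. Before taking log2, a floor was set at the 20th percentile of each table, which was 122.6 units for array A and 76.57 for array B. Testing was limited to probe sets that passed the table median on 3 or more arrays (array A 12231, array B 12516). In R 4.3.3, limma 3.58.1 fitted the 6 groups of a table together by lmFit and by eBayes with its trend option. Two-sided p-values were adjusted after Benjamini and Hochberg, separately for each table and contrast, and called at 0.05. The early and late contrasts average groups of the same fit. Comparisons of days with PBS share the PBS samples. Medians of counted classes are over tested probe sets. The procedure was tested on simulated data.

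The rule for named members took, per family and contrast of day 27, day 35 and late minus early on array A, the 4 probe sets with the smallest p and the 2 with the largest, every call elsewhere, the catalytic subunits, the activators, the ubiquitin receptors and Psmd14, and from the pathway list every called gene, Nfe2l1 and Pomp among others; the text gives most of these. Other members named were chosen after their values were seen. Alternatives covered scaling, floor, filter, variance model, array weights, the samples in the fit, a replicate block, an RNA quality covariate and omitted samples. For 1 array B sample of day 1 the source name gives no tissue, so its description set the group.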

Additional observations from a re-analysis of the deposited data

Results flagged for a closer look

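Treated nodes at late days differed from treated nodes at early days for 27 of 57 tested proteasome probe sets of array A, by the limma contrast of late minus early samples (adjusted p under 0.05), where 15.4% of all tested probe sets did. Treatment and time cannot be told apart in this contrast. The log2 changes of the alpha subunits were -0.20 for Psma1, -0.37 for Psma2, -0.20 for Psma3, -0.35 for Psma4, -0.17 and -0.14 for probe sets 1416506_at and 1437144_x_at of Psma6, and -0.16 for Psma7. Those of the beta subunits were -0.26 for Psmb1, -0.22 for Psmb2, -0.22 and -0.29 for Psmb3, -0.25 for both probe sets of Psmb4, -0.22 for Psmb5, -0.33 for Psmb6 and -0.32 for Psmb7. The regulatory subunits gave -0.13 for Psmc4, -0.18 for Psmc5, -0.16 for Psmd1, -0.21 for Psmd8, -0.15 for Psmd13, and 0.30 and 0.17 for 2 probe sets of Psmd11. The activators gave -0.33 for Psme1, -0.29 for Psme3, and 0.19 and 0.24 for 2 probe sets of Psme4.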

How the results depend on the processing

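No called change turned its direction under any alternative run. Counts of called core probe sets on array A moved by over 1.5 times as follows. With array weights they were 2 (higher) at day 2, 2 (higher) at day 3, 6 at day 27 and 13 at day 35. With only the groups compared in the fit the day 27 count was 0. With the 3' over 5' covariate they were 0 at day 27, 0 at day 35 and 7 late against early. Leaving out single samples gave 0 to 2 at day 27, 3 (without day 35 sample 2) to 6 at day 35, and 11 to 17 late against early. Regulatory counts with array weights were 3 (higher) at day 2, 5 (3 lower) at day 27, 8 (6 lower) at day 35 and 11 (8 lower) late against early. Scaling to a common median gave 1 at day 27 and 3 at day 35, quantile scaling 2 at day 35, and no filter on dim probe sets 2 at day 35. The covariate gave 0 at day 35 and 2 late against early. When the 3 arrays of lowest weight were left out (day 3 sample 3, day 27 sample 2 and day 35 sample 3) they were 2 (higher) at day 27 and 3 at day 35. Leaving out single samples gave 0 to 1 at days 27 and 35 and 3 to 7 late against early. With the covariate the 3 activator calls at day 35 and both Psme4 calls late against early were lost, and scaling to a common median ended both Psme4 calls too. Array weights raised calls over the 12231 probe sets of array A too. They gave 169 lower and 367 higher at day 2, and 201 and 176 at day 3. At day 27 these were 1064 (8.7%) and 1421, and at day 35 1389 (11.4%) and 1657. Late against early they were 1909 (15.6%) and 2205. A common median gave 682 lower (5.59%) at day 27 and 925 (7.59%) at day 35, and quantile scaling 730 (5.99%) at day 35. Without the 3 low-weight arrays 664 were lower and 768 higher at day 27, and 889 (7.27%) and 942 at day 35.

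On array B the count was 1 at day 27 with array weights and 1 with the replicate block, 3 late against early with array weights and 3 with the replicate block, and 0 at day 35 with the covariate. Single omissions gave 0 to 1 at day 27, 0 to 3 at day 35 and 0 to 2 late against early. The labels give no meaning to the replicate number. Deviations of same-numbered samples had a median correlation of 0.02 on array A (18 of 45 pairs over 0.1) and 0.37 on array B (34 of 45), against 0.00 and -0.10 for other numbers, and 8 and 12 of 18 samples correlated best with their own number. On array B the numbers thus went with the data, though not in every pair, and the block gave 864 lower and 463 higher calls at day 35 over the whole table, against 361 and 88 without it. Over single probe sets and alternatives, 5282 values stayed on their side of the threshold, 151 lost a call and 102 gained one. The cause of these moves was not tested.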
